A study of Mus musculus with 194 samples.

Results

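The regions described here are the 10 kb windows of the mouse genome that collected most transposon insertions in the cortex of 2 C57bl6J animals. Chromosomes 1 to 19 of GRCm38 were divided into windows of 10 kb from base 1, insertions of both animals were summed in each, and the top 1% among windows with at least 1 insertion was kept, with ties at the lowest kept value. This gave 2142 windows of 211305, covering 21.42 Mb. Since the C57bl6J values chose these windows, those values are given as a description and enter no test.

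The study recorded insertions by calling cards, where a transposase marks the DNA near it with a transposon, in mice that received adeno-associated virus on postnatal day 0 or 1. The labels list 194 GEO samples, which make up 47 tables, 1 for each of 46 animals and 1 for a cell line. In the self-reporting transposon tables the insertion was read from RNA. In the cortex tables of this kind the tissue was dissected into 10 pieces, so that 1 position and strand could be counted up to 10 times in an animal. An insertion here is 1 line of a table, and a level is given in IPM, insertions per 1000000 of the table's insertions on chromosomes 1 to 19.

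The 2 C57bl6J animals received viruses that do not need Cre. The 6 Syn1Cre animals carry a Cre driver named for synapsin 1, which is used to reach neurons, and the 6 GFAPCre animals one named for glial fibrillary acidic protein, a gene of astrocytes whose promoter also works in neural progenitors. The 6 Syn1CreNeg and the 6 GFAPCreNeg animals are their Cre-negative counterparts. The 4 Syn1Cre_SP1_P28 and the 3 Syn1Cre_SP1_P10 animals carry the Syn1Cre driver and the label SP1, the name of a transcription factor that binds GC-rich promoters, at postnatal days 28 and 10. The 4 Rbp4Cre_TRAP animals gave whole forebrain material selected by TRAP with a driver named for Rbp4, a gene of cortical layer 5 projection neurons. The labels also give 3 Frontflip_GFAPCre and 3 Frontflip_GFAPCreNeg animals, a name they do not explain, and 3 BrokenHeart animals, whose insertions were read from DNA with 20 barcoded transposons. N2a is a mouse neuroblastoma cell line, here in 1 combined table. The ages of the other groups are not given in the labels, and every animal in all groups received virus.

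PiggyBac transposase inserts at the sequence TTAA, and without a fused DNA-binding protein it is known to favour open chromatin, above all large enhancer domains. Such domains often surround the transcription factor and microRNA genes that define a cell type. In cortex they lie near factors of excitatory neurons such as Tbr1 and Mef2c, of interneurons such as the Dlx genes, and of astroglia and progenitors such as Sox2, Nfia and Zbtb20.

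Sequences of 2 kinds carry what follows. Of the 919 microRNA hairpins on the chromosomes used, 25 (2.72%) lay on a member window, on 19 windows in all. Windows with a hairpin made 0.887% of members, 0.616% of the next 1% of windows by insertions and 0.338% of all windows. These shares were not tested. The mature microRNAs below are those of hairpins discussed later, with the seed (bases 2 to 8) in capitals. They were chosen after the values were seen, and sequences are those of RefSeq for GRCm38.p6.
miR-9-5p (Mir9-1, Mir9-2, Mir9-3): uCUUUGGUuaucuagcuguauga
miR-99a-5p (Mir99a): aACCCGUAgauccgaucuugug
let-7c-5p (Mirlet7c-1): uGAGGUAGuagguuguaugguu
let-7i-5p (Mirlet7i): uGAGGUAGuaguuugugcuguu
miR-125b-5p (Mir125b-1): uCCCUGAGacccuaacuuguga
miR-137-3p (Mir137): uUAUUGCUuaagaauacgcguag
miR-129-5p (Mir129-2): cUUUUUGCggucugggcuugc
miR-181a-5p (Mir181a-1): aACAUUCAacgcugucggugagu
miR-181b-5p (Mir181b-1): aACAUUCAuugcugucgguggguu
The let-7c and let-7i sequences share one seed, and miR-181a and miR-181b share another. All 3 genes that encode miR-9, a microRNA of neural progenitors and neurons, lay on members.

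The promoters below are 4 whose genes start in a named member window and whose insertions follow the groups in different ways. Each runs from 250 bases before to 50 bases after the gene's start, 5′ to 3′ on the gene's strand (RefSeq, GRCm38.p6), with the TTAA sites in capitals.
Csrnp3 promoter, chr2:65931615-65931914, plus strand: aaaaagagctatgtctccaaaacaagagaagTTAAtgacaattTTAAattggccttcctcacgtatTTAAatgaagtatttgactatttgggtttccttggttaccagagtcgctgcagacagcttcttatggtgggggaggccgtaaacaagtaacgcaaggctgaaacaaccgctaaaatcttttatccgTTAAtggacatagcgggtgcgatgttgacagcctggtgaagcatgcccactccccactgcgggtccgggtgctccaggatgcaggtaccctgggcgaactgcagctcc
Git1 promoter, chr11:77493038-77493337, plus strand: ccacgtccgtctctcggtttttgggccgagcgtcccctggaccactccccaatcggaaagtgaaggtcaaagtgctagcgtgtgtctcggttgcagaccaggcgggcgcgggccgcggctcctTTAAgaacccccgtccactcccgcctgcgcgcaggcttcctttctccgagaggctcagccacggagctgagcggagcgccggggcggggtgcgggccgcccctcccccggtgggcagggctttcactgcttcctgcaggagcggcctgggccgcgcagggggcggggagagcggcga
Neurod6 promoter, chr6:55681214-55681513, minus strand: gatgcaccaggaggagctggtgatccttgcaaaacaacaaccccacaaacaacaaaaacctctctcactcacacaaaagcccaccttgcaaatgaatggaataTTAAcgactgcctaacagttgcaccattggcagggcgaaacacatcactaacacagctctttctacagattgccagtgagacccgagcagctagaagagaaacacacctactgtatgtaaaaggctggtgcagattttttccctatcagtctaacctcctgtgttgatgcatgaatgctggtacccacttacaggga
Dio2 promoter, chr12:90738989-90739288, minus strand: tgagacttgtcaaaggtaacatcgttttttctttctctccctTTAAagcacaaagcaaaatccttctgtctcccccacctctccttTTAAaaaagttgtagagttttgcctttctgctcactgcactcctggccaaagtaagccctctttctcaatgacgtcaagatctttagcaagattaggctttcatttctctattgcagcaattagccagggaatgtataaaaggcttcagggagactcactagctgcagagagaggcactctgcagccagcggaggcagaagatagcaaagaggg
The motif TTAA, the same on both strands, stood in 52.7% of the 431 promoters of genes that start in a member window and in 47.8% of all 20084 promoters of the same 300 bases. In the self-reporting tables, 100% of the insertions that fell in RefSeq promoters stood at a TTAA.

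In the Csrnp3 promoter all 4 TTAA sites were used in C57bl6J, with 15, 7, 29 and 16 insertions, which made 67 of the 881 in its window. The single site of the Git1 promoter, 127 bases before the start of a gene for a scaffold protein of synapses and adhesions, took 18 insertions in C57bl6J, 49 in Syn1Cre, 37 in Syn1Cre_SP1_P28 and 23 in Syn1Cre_SP1_P10. In IPM this was 5.09, 9.81, 49.5 and 86.5. The single site of the Neurod6 promoter, a basic helix-loop-helix factor of excitatory neurons, took 20 insertions in C57bl6J, 23 in Syn1Cre, 2 in Syn1Cre_SP1_P28 and 0 in Syn1Cre_SP1_P10. In IPM this was 5.46, 5.08, 0.886 and 0. Over the shallow Syn1Cre_SP1_P10 group 3 insertions make 11.3 IPM, so the 0 there cannot show a fall. The 2 sites of the Dio2 promoter, whose gene encodes the astrocyte enzyme that activates thyroid hormone, together had 16.4 IPM in Syn1Cre and 41.3 in Syn1CreNeg, 18.2 in GFAPCre and 45.4 in GFAPCreNeg. The Dlx1 promoter held no TTAA and had 0 insertions in any table, although its window was a member. These site counts belong to windows tested below and were not tested on their own.

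The members held 548225 of the 3643417 C57bl6J insertions on these chromosomes, or 15.0% (15.4% in animal 1, 14.8% in animal 2). Summed insertions per member ran from 135 to 2176 with a median of 188, against a median of 8 over all windows and 111 over the next 1%, which ran from 97 to 134. In animal 1 the members held 39 to 972 insertions each (median 80), and in animal 2 63 to 1204 (median 109). Chosen from each animal alone, the top 1% had 1855 and 2007 windows, of which 1628 were shared, 87.8% of the first list and 81.1% of the second. The lowest kept value was 135, reached by 37 windows. Just inside it lay windows on Paqr8 (68 and 67 insertions in animals 1 and 2) and Rftn2 (52 and 83), and just outside, at 134, windows on Ppp1r42 (70 and 64) and Tmeff2 (53 and 81). The line between members and other windows was therefore 1 insertion wide.

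**Figure D1:**
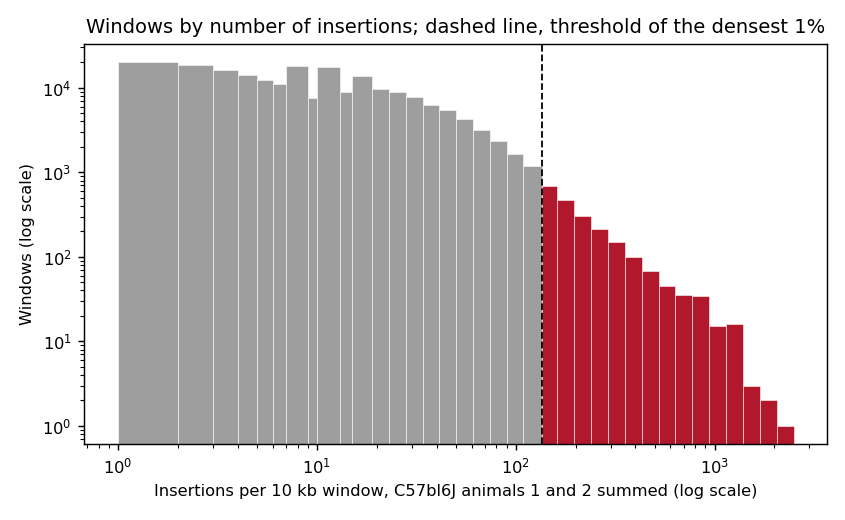
Number of 10 kb windows (log axis) in bins of summed C57bl6J insertions per window (log axis), with members in red and other windows with at least 1 insertion in grey. The members begin at 135 insertions and reach 2176, while the median window held 8.

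In the members insertions piled up at the same positions. Each used position and strand held on average 2.40 insertions in animal 1 and 2.71 in animal 2, against 1.41 and 1.48 over all windows. Of the used positions, 3.57% and 5.99% held 8 or more insertions, against 0.502% and 0.778% over all windows, and the most at any position and strand was 10, the number of pieces. In the 12 densest windows the most used TTAA held 36 to 39 of the 40 insertions that 2 animals, 2 strands and 10 pieces allow, yet this was only 1.75% to 3.01% of the window's insertions, which spread over 73 to 103 positions. Over all members together, insertions were even between strands, with 49.8% on the plus strand in both animals. In single windows they were less even. Among the 12 densest the plus share ran from 38.7% near Plcl1 to 58.6% near Tmem161b. At the most used positions the count is limited by the number of pieces, so high levels may be understated.

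Members lay in genes more often than all windows did, and in long ones, as did the next 1%. Of the 2142, 1501 (70.1%) overlapped a protein-coding gene, against 49.1% of all windows and 73.5% of the next 1%. The 826 genes the members overlapped had a median length of 123 kb, against 19.2 kb for the genes under all windows and 103 kb under the next 1%. A gene start lay in 320 members (14.9%, against 6.89% of all windows and 15.8% of the next 1%). A further 318 members (14.8%, against 9.27% of all windows and 9.48% of the next 1%) overlapped a long noncoding RNA gene and no protein-coding gene. The 641 members outside protein-coding genes lay a median of 91.9 kb from the nearest, against 107 kb in all windows and 59.2 kb in the next 1%. Over 100 kb away lay 315 members (14.7%), against 26.2% of all windows and 9.72% of the next 1%. Exons, introns and UTRs are not in the gene table used here. No test was run on these shares, which follow from the values that chose the members, and longer genes hold more windows.

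Members also lay near each other. Joined where less than 20 kb apart, they formed 1442 clusters, of which 1080 were single windows and 39 had at least 5 windows and held 260 windows (12.1%). The largest, chr16:77500001-77680000, had 16 windows and 5279 insertions with no protein-coding gene in it, the nearest (Usp25) 523 kb away, and held Mir99a and Mirlet7c-1. Zeb2, a zinc-finger factor of neuron and interneuron development, had 13 windows with 6027 insertions. A cluster in Tcf4, a basic helix-loop-helix factor, had 11 windows with 3632, a cluster 102 kb from Dpyd that held Mir137 had 11 with 3089, and Csrnp3 had 10 with 3043. By gene, Celf2 (an RNA-binding splicing factor) held most members, 22, followed by Tcf4 with 21, the axon guidance receptor Robo2 with 17, the adhesion gene Cadm2 with 15 and the teneurin Tenm2 with 14. Across chromosomes the share of windows that were members was highest on chromosome 13 (1.56%) and 16 (1.55%) and lowest on chromosome 7 (0.591%).

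Listed neuron, interneuron and astroglial or progenitor factor genes often had a member, and listed oligodendrocyte, microglia and endothelium genes had none. Over all 20661 protein-coding genes, 984 (4.76%) had a member in the gene body or within 10 kb of it. Among 20 neuron genes, 12 did, among them Rbfox3, Snap25, Syt1, Map2, Slc17a6, Tbr1, Bcl11b, Neurod6, Neurod2, Fezf2 and Stmn2. The interneuron list had 7 of 14 (Dlx1, Dlx2, Dlx5, Dlx6, Erbb4, Nxph1 and Satb1), without the subtype markers Sst, Pvalb, Vip and Npy. The list of astroglial and progenitor factors had 9 of 15 (Sox2, Nfia, Nfib, Nfix, Zbtb20, Hes1, Lhx2, Npas3 and Rorb). Astrocyte genes had 2 of 20 (10%), the glutamate transporters Slc1a2 and Slc1a3. Oligodendrocyte genes had 0 of 11 and genes of microglia and endothelium 0 of 10, while immediate early genes had 2 of 7 (Egr1, Nr4a1) and housekeeping genes 1 of 9. These are counts on the values that chose the members, with no test, and no transcript levels are in the tables. Gene length differed between lists, and longer genes hold more windows. Its median was 50.7 kb for neuron genes, 29.5 kb for astroglial factors and 7.61 kb for interneuron genes. It was 14.1 kb for astrocyte, 17.0 kb for oligodendrocyte, 22.6 kb for microglia and endothelium and 17.5 kb for all genes. In whole cortex, fewer cells of a type and fewer insertions per cell cannot be told apart.

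Of the 12 densest windows taken 1 per cluster, 10 lay outside protein-coding genes and 2 on one, the transcription factors Zbtb18 and Tcf4. Chromosome 13 held 3 of them, between Mef2c and Ccnh. The densest window of all, chr13:84750001-84760000, lay 429 kb from the nearest protein-coding gene, Ccnh, and held 972 and 1204 insertions in the 2 C57bl6J animals (644 and 564 IPM). In Syn1Cre it had 721 to 1491 IPM (median 839), in Syn1CreNeg 1347 to 2192 (median 1672), in GFAPCre 662 to 1343 (median 1080) and in GFAPCreNeg 1149 to 2016 (median 1265). It was the highest member in 8 of the 11 other groups, and in N2a cells it had 3.79 IPM.

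The second, chr3:17320001-17330000, lay 618 kb from Cypt12 and held 836 and 1195 C57bl6J insertions. Its level was 652 to 756 IPM in Syn1Cre, 419, 442, 448 and 489 in the Syn1Cre_SP1_P28 animals, and 1.26 in N2a. In both windows the animals listed here lay far above N2a cells.

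The window on Zbtb18, a zinc-finger repressor needed in cortical neuron development, at chr1:177450001-177460000 held 689 and 892 C57bl6J insertions. It was the highest member in Rbp4Cre_TRAP, with 752, 952, 992 and 1296 IPM in the 4 animals, against 367 to 544 in Syn1Cre and 154, 132, 168 and 181 in Syn1Cre_SP1_P28. N2a had 89.7. The Rbp4Cre_TRAP animals all lay above every Syn1Cre animal in this window, a comparison that was not tested. That separation was not particular to it. It also held in the windows near Plcl1 (645 to 961 against 379 to 606 IPM) and Fancl (534 to 919 against 317 to 405). In others, such as the one nearest Ccnh (628 to 961 against 721 to 1491), the groups overlapped.

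Windows near Mef2c, a factor of excitatory neuron differentiation, followed the groups in different ways. The window chr13:83860001-83870000, 193 kb from it, had 340 and 359 IPM in C57bl6J, 198 to 249 in Syn1Cre, 94.5 to 159 in Syn1CreNeg, 138 to 185 in GFAPCre and 123 to 180 in GFAPCreNeg. The window chr13:83710001-83720000, 42.9 kb from it, had 353 and 307 IPM in C57bl6J and was the highest member in Syn1Cre_SP1_P10, with 989, 1208 and 923. It had 918, 1052, 1020 and 537 in Syn1Cre_SP1_P28 and 396 to 816 in Syn1Cre, and none in N2a. In N2a cells the highest member was instead chr2:18050001-18060000 on Mllt10, a chromatin factor, with 584 IPM against 135 and 149 in C57bl6J.

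**Figure D2:**
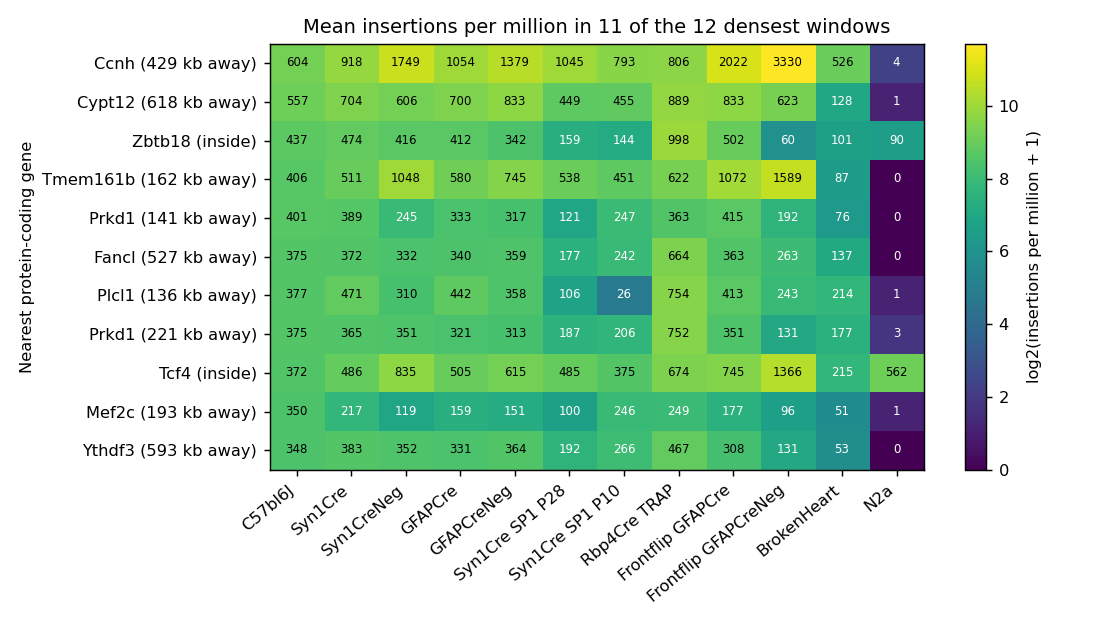
Mean IPM per group (columns) in 11 of the 12 densest windows, 1 per cluster (lines, by nearest protein-coding gene), printed in each cell and coloured by log2(IPM + 1). The window nearest Ccnh reached 604 in C57bl6J, 1749 in Syn1CreNeg and 3.79 in N2a.

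In the other groups of animals read from RNA, the C57bl6J members took on average 14.6% to 22.0% of the insertions. Their mean share was 15.9% ± 1.90 in Syn1Cre (SD, n = 6; 14.6% to 19.7%), 18.9% ± 1.38 in Syn1CreNeg (n = 6), 16.0% ± 1.41 in GFAPCre (n = 6) and 17.7% ± 1.34 in GFAPCreNeg (n = 6). It was 15.7% ± 2.03 in Syn1Cre_SP1_P28 (n = 4), 14.6% ± 0.630 in Syn1Cre_SP1_P10 (n = 3), 17.7% ± 0.948 in Rbp4Cre_TRAP (n = 4), 19.7% ± 0.745 in Frontflip_GFAPCre (n = 3) and 22.0% ± 2.46 in Frontflip_GFAPCreNeg (n = 3). The lowest shares were in BrokenHeart, 8.07% ± 0.275 (n = 3), and N2a, 5.78% in 1 table (95% Wilson interval 5.73% to 5.83%, which covers counting error only). The members were chosen in C57bl6J, where they held 15.1% ± 0.422 (n = 2), so that share is not comparable as evidence. No p is given for these shares, since each is a score over the members.

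**Figure D3:**
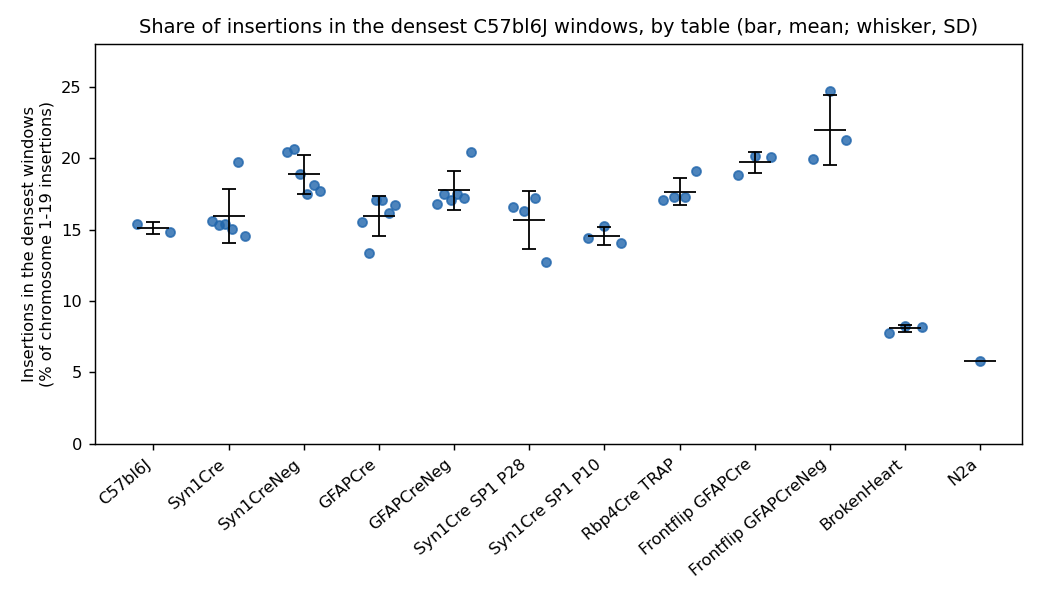
Percent of each table's insertions on chromosomes 1 to 19 that lay in the 2142 members, 1 point per table, with the mean and SD of each group. BrokenHeart tables averaged 8.07% and N2a had 5.78%, while the means of the other groups lay between 14.6% and 22.0%.

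Depth moved with the share in places. Insertions per table ran from 1510040 to 2133377 in C57bl6J, 432664 to 1332946 in Syn1Cre, 95188 to 542788 in Syn1CreNeg, 585792 to 1468600 in GFAPCre and 202904 to 582884 in GFAPCreNeg. They ran from 106446 to 564530 in Syn1Cre_SP1_P28, 84941 to 93185 in Syn1Cre_SP1_P10, 23927 to 55841 in Rbp4Cre_TRAP, 41637 to 96176 in BrokenHeart, 156877 to 200629 in Frontflip_GFAPCre and 2265 to 9377 in Frontflip_GFAPCreNeg, and N2a had 791147. Syn1Cre animal 5, the shallowest of its group, stood apart with 19.7% against 14.6% to 15.6% in the other 5. GFAPCreNeg animal 6 (202904 insertions, 20.4%) and Rbp4Cre_TRAP animal 4 (23927, 19.1%) were also the shallowest of their groups with the highest shares. The deepest tables of Syn1Cre_SP1_P28 (564530) and GFAPCre (1468600) had the lowest shares of theirs, 12.7% and 13.4%. In BrokenHeart the deepest table (96176) instead had the highest share, 8.27%. The part of depth in these differences was not tested.

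The same windows did not head the list in every group. Of the members, 1651 (77.1%) also lay in the top 1% of Syn1Cre, which was 76.9% of that group's own list. The shares of members were 68.2% for GFAPCre (69.5% of its list), 47.8% for GFAPCreNeg (55.9%), 41.1% for Syn1CreNeg (52.3%), 27.5% for Syn1Cre_SP1_P28 (42.0%), 15.5% for Syn1Cre_SP1_P10 (42.7%), 30.7% for Rbp4Cre_TRAP (88.9%), 20.3% for BrokenHeart (46.0%) and 9.85% for N2a (17.9%). For Frontflip_GFAPCre it was 35.4% (63.7%) and for Frontflip_GFAPCreNeg 4.39% (81.0%). Short lists limit these shares: 739 windows in Rbp4Cre_TRAP, 775 in Syn1Cre_SP1_P10 and 116 in Frontflip_GFAPCreNeg. In the lists of all 4 Syn1Cre, Syn1CreNeg, GFAPCre and GFAPCreNeg groups lay 822 members (38.4%). Only 10 members lay in the top 1% of all 11 other groups, among them 3 windows in Tcf4 and 1 each on Nup93, Nfia and Skida1. At most 94 could, the members on the Frontflip_GFAPCreNeg list. Of the 10, a further 2 lay 58.3 and 68.3 kb from the chromatin remodeller gene Chd2 and 1 lay 876 kb from Pou3f3, their nearest protein-coding genes. Members with no insertion at all numbered 559 in N2a, 57 in BrokenHeart, 30 in Rbp4Cre_TRAP, 28 in Syn1Cre_SP1_P10, 1 in Syn1Cre_SP1_P28 and 1108 in the very shallow Frontflip_GFAPCreNeg. The tables of the last group held 2265 to 9377 insertions each, and the part of depth in that count was not tested.

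Differences between groups were tested with edgeR's quasi-likelihood test over every 10 kb window that passed its low-count filter, with Benjamini-Hochberg adjustment over all of them, at an adjusted p of 0.05. All adjusted p-values below come from these fits. The levels tested are IPM after TMM scaling, called normalised insertions below, and log2 fold changes (log2FC) carry their standard error. Each table is 1 animal, so these p-values measure the spread between animals of this series. Of the 5 comparisons, 4 use the Syn1Cre animals, so their results share those animals and are set side by side only. By the labels, the sequencing pools of Syn1Cre held no animals of another group, so in these 4 comparisons pool and group cannot be told apart. Medians over members are set beside those over all windows that passed the filter. In the order used below, the median over members minus that over all windows was 0.06, 0.25, 0.09, -0.60 and -0.26, but with no filter it was -0.01, -0.18, -0.18, 0.11 and 0.19, so its direction holds only for windows that passed.

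Between Syn1Cre and GFAPCre few members differed, and the interneuron windows led those that did. Of 2132 members tested (10 did not pass the filter), 86 were higher in Syn1Cre and 27 lower, together 113, where 2.86% of all 18215 windows were called (1.29% higher, 1.57% lower). As shares of the members tested, these were 4.03% higher and 1.27% lower. The median log2FC was 0.06 over members and 0.00 over all windows. With Syn1Cre animals 1 to 3 only, 448 members were called (230 higher, 218 lower), with animals 4 to 6 only 30 (27 and 3), and without animal 5 318 (136 and 182). Leaving out GFAPCre animal 1, 3, 4 or 6 or Syn1Cre animal 2 gave 59, 75, 63, 74 and 74, and without the low-count filter the calls split 48 higher and 64 lower.

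The window with the largest rise, chr2:71520001-71530000 on Metap1d and Dlx1, had 375 insertions in C57bl6J. Its level was 115 to 163 IPM (median 150) in Syn1Cre and 9.02 to 26.7 (median 14.2) in GFAPCre, and the groups did not overlap. Dlx1 and its neighbours are homeobox genes of interneuron specification. Its log2FC was 3.16 (SE 0.19, adjusted p = 4.15e-10). The Dlx5 and Dlx6 window, chr6:6860001-6870000, had 48.8 to 77.9 IPM in Syn1Cre and 6.81 to 14.8 in GFAPCre (log2FC 2.67, SE 0.20, adjusted p = 1.36e-08), and Nxph2, a neurexophilin that binds neurexins, had a log2FC of 2.68 (SE 0.22, adjusted p = 4.59e-08).

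The 14 members at interneuron genes lay at 7 genes, and neighbouring windows are not separate observations. All 14 passed the filter and were higher in Syn1Cre, with a median log2FC of 2.07. Only 10 of them passed it between GFAPCre and GFAPCreNeg, so some may have passed here through Syn1Cre, and the count is a description. They included Erbb4, the neuregulin receptor of interneurons, at 43.4 to 64.7 against 3.69 to 14.3 IPM (log2FC 2.64, SE 0.23, adjusted p = 6.91e-08) and Nxph1 (2.21, SE 0.18, adjusted p = 4.59e-08). Satb1, a chromatin organiser of maturing interneurons, was higher by less (0.58, SE 0.14, adjusted p = 0.0218), and its call ended under 8 of the alternatives. Of the 14 calls 9 held when each position counted once, and 9 with no low-count filter. Of 34 members at neuron genes 4 were higher and 0 lower (median 0.19). Slc17a6, a vesicular glutamate transporter, rose by a log2FC of 0.68 (SE 0.16, adjusted p = 0.0207), a call that ended under 6 alternatives. Of the 46 members at astroglial factors (median -0.17) and the 3 at astrocyte genes (median -0.45) edgeR called 0 and DESeq2 0, with 9 and 0 at an unadjusted p under 0.05, but without Syn1Cre animal 5, 16 and 2 of them were lower in Syn1Cre.

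The members with the largest falls lay far from genes: chr1:41420001-41430000, 563 kb from Tmem182, at 15.8 against 44.4 normalised insertions (log2FC -1.54, SE 0.25, adjusted p = 0.000718), and chr13:84560001-84570000, 264 kb from Tmem161b, at 52.3 against 131 (-1.33, SE 0.22, adjusted p = 0.00126). The second call ended under 1 alternative.

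**Figure D4:**
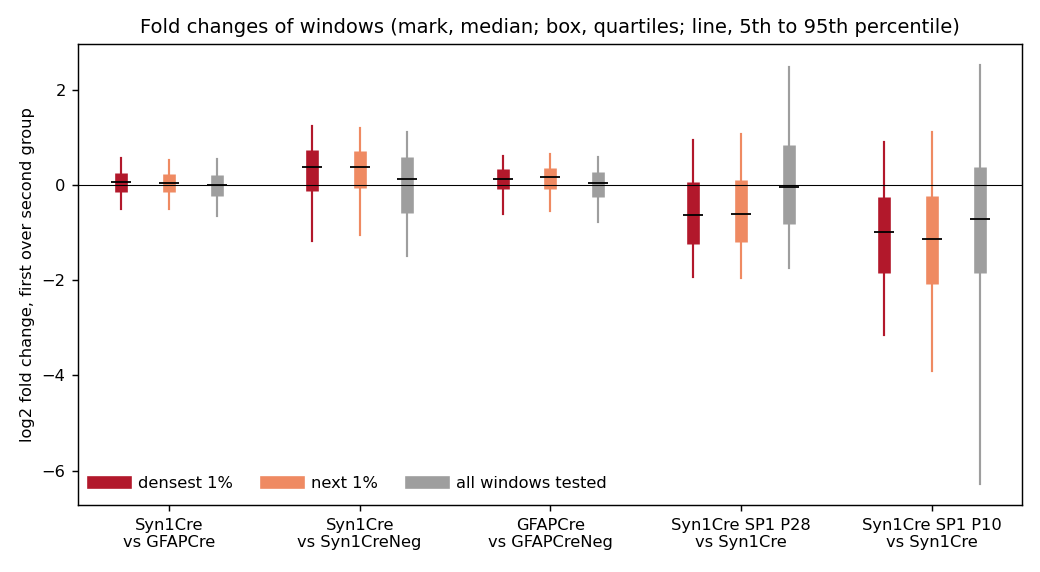
Log2 fold change per window for members (red), the next 1% (orange) and all windows tested (grey) in each of the 5 comparisons, with the median (mark), quartiles (box) and 5th to 95th percentile (line). Members were centred at 0.06, 0.39, 0.14, -0.62 and -0.97, and all windows at 0.00, 0.14, 0.05, -0.03 and -0.72.

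Against Cre-negative animals, Syn1Cre had more insertions in members at interneuron and neuron genes and fewer at astroglial ones. Of 2068 members tested (74 did not pass), 829 were higher in Syn1Cre and 337 lower (40.1% and 16.3%), where 47.5% of all 8569 windows were called (22.2% higher, 25.3% lower). The median log2FC was 0.39 over members and also 0.39 over the next 1%, against 0.14 over all windows tested. Scaled by total insertions alone, 505 were higher and 383 lower, and the median over all windows moved to -0.04. With animals 1 to 3 of both groups only, 622 were called (333 and 289), and with no low-count filter 665.

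Nxph1 had 53.6 to 70.4 IPM in Syn1Cre (median 56.6) and 0 to 12.9 in Syn1CreNeg (median 2.18), a log2FC of 3.37 (SE 0.33, adjusted p = 8.48e-07). The window chr2:71510001-71520000 beside Dlx1 had 173 to 250 IPM against 18.4 to 34.3 (3.13, SE 0.21, adjusted p = 1.72e-09). All 14 interneuron members were higher (median 2.02), again as a description. Of 33 tested neuron members, 22 were higher and 3 lower (median 0.66), but 12 and 3 under scaling by total insertions. The synaptic vesicle calcium sensor Syt1 had 136 to 171 IPM against 66.7 to 116 (0.81, SE 0.17, adjusted p = 0.000806). The groups did not overlap.

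Of the 46 members at astroglial and progenitor factors, 32 were lower in Syn1Cre and 1 higher (median -0.92), and all 3 at astrocyte genes were lower (median -1.43). The 46 windows lay at 9 genes, with 11 each in Zbtb20 and Nfia, so they are not separate observations. Zbtb20, a zinc-finger factor of astrocyte formation, had 128 to 566 IPM in Syn1Cre (median 166) and 573 to 1029 in Syn1CreNeg (median 726) at chr16:42910001-42920000, which did not overlap (log2FC -1.62, SE 0.26, adjusted p = 0.000122). Slc1a3, the astrocyte glutamate transporter GLAST, had 59.7 to 259 against 263 to 462 (-1.57, SE 0.25, adjusted p = 0.000104). Sox2, the progenitor factor, had 227 to 564 against 473 to 829 (-0.85, SE 0.18, adjusted p = 0.000814), and its call ended under 2 alternatives. In these 3 windows the highest Syn1Cre animal was animal 5. The window on the zinc-finger gene Sall3 was lower by a log2FC of -1.90 (SE 0.26, adjusted p = 5.2e-05), and Sall1 had -1.70 with a standard error of 0.28.

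Of the 12 densest windows, 5 were higher in Syn1Cre and 3 lower. Among the lower were the window nearest Ccnh (log2FC -0.76, SE 0.16, adjusted p = 0.000626) and Tcf4 (-0.60, SE 0.15, adjusted p = 0.003), and among the higher the window 193 kb from Mef2c (1.02, SE 0.17, adjusted p = 0.000157) and the one 136 kb from Plcl1 (0.78, SE 0.15, adjusted p = 0.000416). Counted once per position, the windows nearest Cypt12 and Fancl turned from higher to -0.20 and -0.07 with no call, and over all 22 alternatives their calls ended in 7 and 12. The calls at Ccnh and Tcf4 each ended under 2 alternatives and that near Plcl1 under 1.

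Between GFAPCre and GFAPCreNeg the share of members called was near that of all windows, and the thyroid hormone enzyme gene Dio2 led the falls. Of 2090 members tested (52 did not pass), 91 were higher in GFAPCre and 119 lower (4.35% and 5.69%), where 9.28% of all 11451 windows were called (1.94% higher, 7.34% lower). The median log2FC was 0.14 over members, 0.16 over the next 1% and 0.05 over all windows tested. Scaled by total insertions the calls were 39 higher and 167 lower, and with DESeq2 50 and 112. Within the sequencing pools that held both groups, with pool as a block, 37 members were called (11 higher, 26 lower). Without GFAPCre animal 3, 342 were called, without animal 2, 5 or 6 of that group 115, 138 and 136, and without GFAPCreNeg animal 2 or 3 130 and 126.

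The largest fall was at Dio2, chr12:90730001-90740000. It had 64.7 to 157 IPM in GFAPCre (median 102) and 192 to 488 in GFAPCreNeg (median 246), which did not overlap, and 35.1 and 46.4 in C57bl6J. Its log2FC was -1.30 (SE 0.21, adjusted p = 0.000326). Frmd4a, a scaffold protein gene, and the cation channel gene Trpm3 followed at -1.16 (SE 0.19, adjusted p = 0.000398) and -1.13 (SE 0.19, adjusted p = 0.000505). Of 46 members at astroglial factors 9 were lower and 1 higher (median -0.32), and all 3 astrocyte members were lower (median -0.64), although 0 of the 3 without the low-count filter. Of 33 neuron members 3 were higher and 1 lower (median 0.29). The interneuron list had 10 tested members (median 0.15), of which edgeR called 0, DESeq2 0, and 1 had an unadjusted p under 0.05. Of the 12 densest windows edgeR called 0 here and 0 between Syn1Cre and GFAPCre, with 2 and 1 at an unadjusted p under 0.05 and 1 and 1 called by DESeq2.

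With SP1 at day 28, most called members fell, among them 22 of the 34 tested at neuron genes. Of 2118 members tested (24 did not pass), 231 were higher in Syn1Cre_SP1_P28 than in Syn1Cre and 1022 lower (10.9% and 48.3%), where 46.4% of all 16688 windows were called (25.5% higher, 20.9% lower). The median log2FC was -0.62 over members, -0.60 over the next 1% and -0.03 over all windows tested. With RLE scaling the calls were 128 higher and 1313 lower and the median over all windows was -0.34. With DESeq2 they were 110 and 1252, and with each position counted once 307 and 666. The ages of the Syn1Cre animals are not given.

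Of 34 neuron members 22 were lower and 0 higher (median -1.06). Neurod6 had 174 to 220 IPM in Syn1Cre (median 194) and 44.1, 65.8, 80.9 and 76.2 in the SP1 animals, which did not overlap. Its log2FC was -1.67 (SE 0.22, adjusted p = 2.72e-06). Tbr1, a T-box factor of deep-layer neurons, had 140 to 173 against 53.0, 47.0, 31.1 and 67.3 (-1.62, SE 0.24, adjusted p = 1.1e-05). The largest fall was in Foxp2, a forkhead factor of deep-layer neurons, at chr6:14920001-14930000, with 24.0 to 50.4 IPM against 0, 0, 6.22 and 1.77 (-4.22, SE 0.59, adjusted p = 4.05e-06).

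The largest rises were at genes whose start lay in the window. Add3, an adducin of the membrane skeleton, had 52.4 to 127 IPM in Syn1Cre (median 61.7) and 397, 507, 523 and 239 in the SP1 animals (log2FC 2.35, SE 0.24, adjusted p = 9.22e-08). The Git1 window, shared with Ankrd13b, had 45.0 to 61.0 against 282, 376, 348 and 161 (2.20, SE 0.20, adjusted p = 1.9e-08), and Xpr1, the phosphate exporter gene, had 38.0 to 58.5 against 243, 291, 255 and 158 (2.18, SE 0.20, adjusted p = 1.67e-08). All SP1 animals lay above all Syn1Cre animals in these. Of the 14 interneuron members 2 were higher and 7 lower (median -0.37), and of the 46 at astroglial factors 11 were higher and 10 lower (median 0.21, but -0.09 with RLE scaling). Among the 3 astrocyte members 2 were higher (median 0.83), and 0 with DESeq2.

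At day 10 members again fell more often than they rose, at a lower depth. The 3 Syn1Cre_SP1_P10 tables held 84941 to 93185 insertions, and the median log2FC over all 21228 windows tested was -0.72 (-0.29 by total insertions, -1.05 with RLE). Of 2132 members tested (10 did not pass), 140 were higher and 946 lower (6.57% and 44.4%), where 33.3% of all windows were called (13.3% higher, 20% lower). The median was -0.97 over members, and that over the next 1% was -1.12. Under scaling by total insertions 202 were higher and 530 lower.

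Neurod6 had 47.1, 34.2 and 64.4 IPM in the 3 animals (log2FC -2.41, SE 0.31, adjusted p = 1.79e-06) and Tbr1 35.3, 57 and 32.2 (-2.28, SE 0.33, adjusted p = 9.66e-06), all below the Syn1Cre animals. Of 34 neuron members 20 were lower and 1 higher (median -1.60). The windows on Git1, Xpr1 and chr2:144160001-144170000, 80.1 kb from Snx5, had log2FC values of 2.52 (SE 0.21, adjusted p = 1.67e-09), 2.61 (SE 0.22, adjusted p = 2.78e-09) and 2.62 (SE 0.23, adjusted p = 3.17e-09). Git1 had 377, 479 and 376 IPM.

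Of the interneuron members 3 were higher and 2 lower (median 0.19, but -0.15 with RLE scaling), and of those at astroglial factors 0 were higher and 17 lower (median -0.68). Of the 3 astrocyte members edgeR called 0, DESeq2 0, and 0 had an unadjusted p under 0.05 (median -0.38, but 0.05 by total insertions and 0.02 with each position counted once). Nxph1 had 153, 148 and 172 IPM against 53.6 to 70.4 in Syn1Cre (log2FC 0.98, SE 0.26, adjusted p = 0.00594), a call that ended under 3 alternatives.

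At day 10, 26 of the 2132 tested members had 0 insertions in all 3 animals. The same count over all windows was not made. The 5th percentile of log2FC was -3.16 over members and -6.29 over all 21228 windows tested, so very low values were not particular to members. Against a floor of 3 insertions over the group, the window in Phactr1, a regulator of actin, was at least 5.62-fold lower than Syn1Cre, where it had 41.6 to 84.7 IPM. The window chr3:118440001-118450000, 112 kb from Dpyd, and one in the phosphatase receptor Ptprd were each at least 4.82-fold lower. At day 28 the Phactr1 window had 27.9 IPM on average.

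Among the 12 densest windows, 9 were lower with SP1 at day 28. The largest fall was 136 kb from Plcl1, chr1:55890001-55900000, with 379 to 606 IPM in Syn1Cre (median 459), 102, 93.9, 137 and 92.1 in Syn1Cre_SP1_P28 and 23.5, 22.8 and 32.2 in Syn1Cre_SP1_P10. Its log2FC was -2.32 (SE 0.22, adjusted p = 3.61e-08) at day 28 and -4.57 (SE 0.36, adjusted p = 7.03e-10) at day 10. Zbtb18 fell by 1.70 (adjusted p = 1.33e-06) and 2.14 (adjusted p = 4.18e-06) on the log2 scale. The windows near Ccnh and in Tcf4 did not pass at day 28 (adjusted p = 0.964 and 0.518). Counting each position once turned the fall near Cypt12 to 0.19 at day 28, and those near Ythdf3, Cypt12 and Ccnh and in Tcf4 to 0.26, 0.14, 0.61 and 0.22 at day 10, with no call, so the direction in these densest windows depends on how repeated positions are counted.

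Around Mef2c, members differed in direction within 1 region. On the lower-coordinate side, chr13:83360001-83370000, 134 kb away, had 9.75 to 23.3 IPM in Syn1Cre and 4.41, 0, 0 and 0 in Syn1Cre_SP1_P28 (log2FC -4.04, SE 0.87, adjusted p = 0.000417), and chr13:83450001-83460000, 44.0 kb away, had 31.5 to 48.1 against 4.41, 0, 0 and 3.54 (-3.74, SE 0.49, adjusted p = 1.66e-06). In day 10 animals the second window had 23.5, 11.4 and 32.2. On the other side the window 62.9 kb away that holds Mir9-2 had 366, 338, 473 and 276 IPM at day 28 against 197 to 317, so that 1 SP1 animal lay within the Syn1Cre range, and its call as higher ended under 7 of 12 alternatives. Farther on that side, the densest-list window 193 kb away had 119, 75.2, 124 and 79.7 IPM against 198 to 249, a fall (-1.29, SE 0.21, adjusted p = 4.42e-05) that kept its call in all 12 alternatives.

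**Figure D5:**
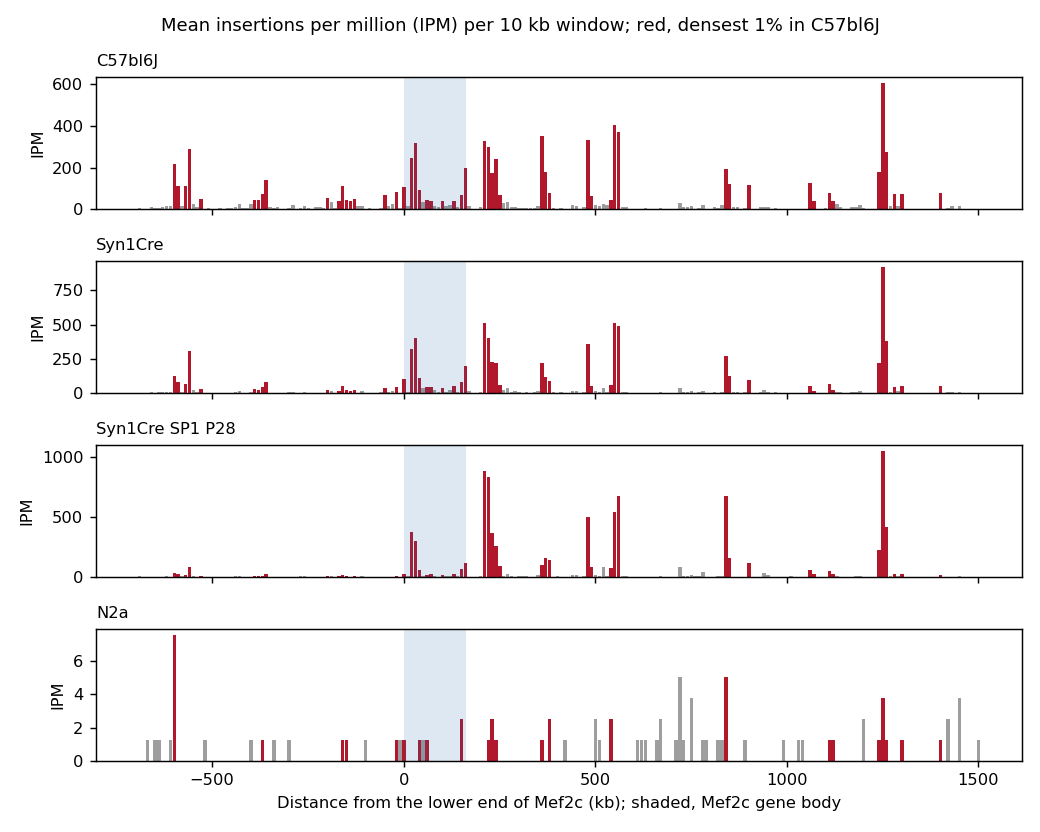
Mean IPM in 10 kb windows by distance (kb) from the lower end of Mef2c, whose gene body is shaded, in C57bl6J, Syn1Cre, Syn1Cre_SP1_P28 and N2a, with members in red, other windows in grey and a scale of its own for each panel. The window 44.0 kb away on one side averaged 37.6 in Syn1Cre and 1.99 with SP1 at day 28, while the one that holds Mir9-2 averaged 226 and 363.

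The microRNA windows named here moved in both directions with SP1, and the 3 that encode miR-9 had positive log2FC values at both ages. Mir9-3, chr7:79500001-79510000, had 59.3 to 99.4 IPM in Syn1Cre (median 73.0), 168, 207, 156 and 108 at day 28 and 177, 319 and 225 at day 10. Its log2FC was 0.85 (SE 0.20, adjusted p = 0.0016) and 1.26 (adjusted p = 0.000517), and each call ended under 1 alternative. Mir9-1 had 74.4 to 122 IPM in Syn1Cre and 216, 178, 193 and 140 at day 28 (0.74, SE 0.19, adjusted p = 0.00389), and Mir9-2 rose by 0.50 (SE 0.20, adjusted p = 0.0405), calls that ended under 4 and 7 alternatives. At day 10 Mir9-1 gave 0.74 (adjusted p = 0.0209), a call that ended under 8 of 11 alternatives and turned to -0.09 without the low-count filter, and Mir9-2 gave 0.13 (adjusted p = 0.676).

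Mir129-2, at chr2:94240001-94250000, had 45.6 to 56.1 IPM in Syn1Cre and 203, 216, 193 and 126 at day 28 (log2FC 1.67, SE 0.19, adjusted p = 3.18e-07). The window of Mir99a and Mirlet7c-1, in the largest cluster, had 217 to 358 in Syn1Cre and 119, 93.9, 149 and 124 at day 28 (-1.18, SE 0.22, adjusted p = 0.000145), a call that ended under 1 alternative. The window of Mir181a-1 and Mir181b-1 had 37.6 to 64.7 against 22.1, 9.39, 43.5 and 15.9 (-1.26, SE 0.31, adjusted p = 0.00243), and 1 SP1 animal lay within the Syn1Cre range. Mirlet7i, which shares the let-7 seed with Mirlet7c-1, had 47.9 IPM in C57bl6J and 119 in N2a, where the window of Mirlet7c-1 had 27.8 and 236 in C57bl6J. Mir125b-1, the densest window with a hairpin, had 247 IPM in C57bl6J, 343 in Syn1Cre and 88.5 in N2a, and Mir137 had 96.0, 108 and 12.6.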

How the data were processed

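Calling-card insertions were measured in 46 mice and the N2a line. The deposited tables have 1 line per insertion with a count of reads, which the authors deposited as raw counts of at least 1, per the values. Per the submitters' processing notes, the genome was mm10 and Bowtie2 and Novoalign were used; their settings are not given in the sources used here. Lines on chromosomes 1 to 19 were counted in 10 kb windows with pandas 2.3.3 in Python 3.11.15, giving counts of insertions. Start positions of the self-reporting tables were shifted by 1 base to the TTAA, and those of BrokenHeart were kept. Of the BrokenHeart insertions that fell in RefSeq promoters, 97.6% stood at a TTAA. Groups came from the labels; sequencing pools that hold several groups were split by table. Windows were named by the protein-coding genes they overlap in RefSeq GRCm38.p6, else by the nearest.

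Counts of the 2 groups compared were tested in edgeR 4.0.16 (R 4.3.3, with TMM, filterByExpr and quasi-likelihood). The test was also run on counts simulated from these fits, with results not given here. Alternatives were total or RLE scaling, DESeq2 1.42.0, no low-count filter, positions counted once, at least 2 reads, a grid shifted by 5 kb, replicate or pool blocks and left-out animals. Between Syn1Cre and Syn1CreNeg, animals 1 to 3 and 4 to 6 were also set as blocks. Alternatives that use only animals 1 to 3 or 4 to 6 of both groups, only Syn1Cre animals 4 to 6, or leave out animals without SP1 were chosen after seeing the data. The members and gene lists were chosen with earlier results of these data known. Windows named were the densest of the 12 densest clusters, the 5 largest clusters, the 3 members with the highest and 3 with the lowest log2 fold change among called members whose animals do not overlap, 1 per cluster, windows beside the threshold, the highest member of each group and those of listed genes. Listed genes and microRNAs were picked for mention after their values were seen. A few members that these rules name are not reported here.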

Additional observations from a re-analysis of the deposited data

Results flagged for a closer look

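In 11 of the 72 groups of values looked at (12 quantities in 6 groups of 4 to 6 animals), 1 animal lay far from the others by Dixon's test. Chance flags about 1 in 20 such groups, and the quantities share their animals.

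Syn1Cre animal 5 accounted for 4 of the 11. It had 19.7% of its insertions in the members, where the other 5 had 14.6% to 15.6%. Its level was 864 IPM in the window near Tmem161b (400 to 469 in the others), 1491 in the one near Ccnh (721 to 859) and 749 in Tcf4 (398 to 471). GFAPCreNeg animal 6 also accounted for 4, with 20.4% in the members (16.8% to 17.5% in the others) and 1089 IPM near Tmem161b (600 to 739), 2016 near Ccnh (1149 to 1368) and 784 in Tcf4 (550 to 605). Both animals had the shallowest table of their group.

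Rbp4Cre_TRAP animal 4, also the shallowest of its group, had 19.1% in the members (17.1% to 17.3% in the others) and 1087 IPM near Prkd1 (610 to 663). Syn1Cre_SP1_P28 animal 3 was low near Ythdf3, at 174 IPM against 197 to 199.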

How the results depend on the processing

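Of 103 named windows by comparison, 54 kept their call in every alternative run and 94 their direction, and over their 1659 alternatives the call was lost with the same direction in 181. The 9 that reversed lost their call, 7 with each position counted once: near Cypt12 and Fancl -0.20 and -0.065 (Syn1Cre against Syn1CreNeg), near Cypt12 0.19 (SP1 at day 28), and near Ythdf3, Cypt12 and Ccnh and in Tcf4 0.26, 0.14, 0.61 and 0.22 (SP1 at day 10). The other 2 reversed at day 10 without the filter, Dlx2 and Mir9-1 at -0.090 each. The cause was not tested.

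Of the counts of called members, the 113 between Syn1Cre and GFAPCre became 42 with positions counted once, 448 with Syn1Cre animals 1 to 3, 30 with animals 4 to 6, and 59 to 318 with 1 animal left out (318 without Syn1Cre animal 5). The 1166 between Syn1Cre and Syn1CreNeg became 665 with no filter and 622 with animals 1 to 3 of both groups (807 to 1243 with 1 left out). The 210 between GFAPCre and GFAPCreNeg became 64 with no filter, 37 with pool as a block, and 115 to 342 with 1 animal left out (342 without GFAPCre animal 3). At days 28 and 10, leaving out 1 animal gave 955 to 1423 and 737 to 1272. The members' median share over the other groups was 16.0%, and 12.2% with positions counted once. The share of members on a gene was 70.1%, and 85.8% with all genes of the table.

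The labels do not say whether replicate numbers pair the animals. Same-numbered animals correlated at lowest -0.452, -0.061, -0.392, -0.164 and -0.071 and at highest 0.279, 0.315, 0.292, 0.024 and 0.071. Such correlations of deviations from the group mean cannot exclude pairing. With a replicate block the calls were 64, 942, 163, 1334 and 1471, and no comparison had every animal correlate best with its own number.

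Tables at day 10 held 84941 to 93185 insertions, and the part of depth in their calls was not tested. Positions full in all 10 pieces cannot show a rise.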
